A study of Mus musculus with 12 samples.

Results

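The integrated stress response and the hormone Fgf21 were followed through 10 genes in denervated and innervated mouse muscle with and without Smad4. The 10 genes, Fgf21, Gdf15, Atf3, Atf4, Atf5, Ddit3, Ddit4, Trib3, Asns and Sesn2, were taken by name from the 27597 genes or names on the array. All 10 passed the filter on dim probes and were among the 15226 genes tested, Fgf21 only through the denervated groups. The gastrocnemius, a calf muscle, of adult male CD1 mice had been profiled on 12 one-colour Agilent arrays, with 3 arrays from different animals in each of 4 groups. The groups were Smad4 knockout (KO) muscle 14 days after denervation, wild-type (WT) muscle 14 days after denervation, KO control muscle with its nerve intact, and WT control muscle. The labels name neither the cells in which Smad4 was deleted, nor a Cre driver, nor the nerve that was severed. Smad4, which carries signals of the TGF-beta and BMP receptors to the nucleus, served as the check of the labels. Its level lay between 1.77 and 2.05 in KO denervated muscle, against 3.18 to 3.49 in WT denervated muscle, and between 2.19 and 2.42 in KO control muscle, against 3.59 to 4.02 in WT control muscle. Levels are log2 of a probe's signal relative to the 75th percentile of its array, a scale on which 1 unit is a doubling, and they can be compared between arrays for 1 probe but not between probes. Smad4 signal remained measurable in KO muscle, and KO control muscle carries the deletion too.

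In the integrated stress response, kinases that sense lack of amino acids, misfolded protein in the endoplasmic reticulum, double-stranded RNA or lack of haem phosphorylate the translation factor eIF2. Protein synthesis then falls in general while the mRNA of the transcription factor Atf4 is translated more, so Atf4 mRNA and Atf4 protein need not move together. Atf4 and its partners of the Atf and C/EBP families bind a composite element in genes for amino acid supply, for feedback inhibition and for secreted hormones, among them Fgf21 and Gdf15. In muscle, this program is best known from mitochondrial disease and from disturbed protein turnover, when Fgf21 and Gdf15 act as signals to other organs.

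The core of that composite element was looked for in the RefSeq promoter windows (GRCm38.p6, 250 bases before to 50 after each gene's start), and the sequences below show where it lay and, for Gdf15, the window of the other hormone gene without it. The letters TGATGNAA, read on both strands, occurred in 3.97% of 32851 windows and in windows of 4 of the 10 genes, Fgf21, Atf3, Asns and Trib3. The cAMP response element TGACGTCA, searched likewise, occurred in 1.79% of windows and the ER stress response element in 0.119%, and no window of the 10 genes held either. The matches of TGATGNAA are in capitals. In Fgf21 and Atf3 the match was on the opposite strand, at -139 to -132 and at -110 to -103 relative to the start. In Asns it was on the gene's strand at -23 to -16, and in Trib3 on the opposite strand after the start, at 15 to 22. A match is a run of letters and no evidence of binding, and no data on binding were measured. All 5 sequences are on the minus strand and read 5′ to 3′.
Fgf21, chr7:45615491-45615740: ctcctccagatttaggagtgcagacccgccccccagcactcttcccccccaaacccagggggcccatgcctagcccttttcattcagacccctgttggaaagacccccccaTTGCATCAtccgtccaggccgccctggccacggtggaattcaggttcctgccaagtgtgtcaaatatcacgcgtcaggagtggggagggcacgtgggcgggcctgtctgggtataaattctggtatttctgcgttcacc
Gdf15, chr8:70632457-70632706: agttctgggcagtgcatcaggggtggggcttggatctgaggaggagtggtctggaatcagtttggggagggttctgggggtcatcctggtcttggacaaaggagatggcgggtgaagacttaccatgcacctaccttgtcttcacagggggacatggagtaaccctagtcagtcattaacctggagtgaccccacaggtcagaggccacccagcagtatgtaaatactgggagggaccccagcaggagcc
Atf3, chr1:191183420-191183459: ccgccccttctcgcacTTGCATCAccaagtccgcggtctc
Asns, chr6:7693210-7693249: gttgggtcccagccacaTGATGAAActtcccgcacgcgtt
Trib3, chr2:152344028-152344057: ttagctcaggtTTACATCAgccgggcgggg

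The genes called after denervation went in both directions. In KO muscle, Fgf21, Gdf15 and Sesn2 were higher and Atf4 was lower in denervated than in control muscle, 4 of 10 genes called at an adjusted p under 0.05 in limma's fit over all genes (Benjamini-Hochberg). Of all genes tested, 46.9% were called in this comparison, 23.7% as higher and 23.2% as lower. In WT muscle, Fgf21, Atf3 and Sesn2 were higher and Atf4 and Ddit3 were lower, 5 of 10 genes. Of all genes tested, 39.2% were called there, 18.7% as higher and 20.6% as lower. The share of the 10 genes called was thus near that of all genes in both genotypes. Fgf21, counted in both, passed the filter on dim probes only through the denervated groups, where it was high. In KO muscle the denervated and control arrays did not overlap for 7 of the 10 genes, 5 above and 2 below, against 56.7% of all genes, 28.5% above and 28.2% below. In WT muscle they did not overlap for 6, 4 above and 2 below, against 53% of all genes, 25.9% above and 27.1% below. The median log2 difference of the 10 genes was 0.70 in KO muscle and 0.42 in WT muscle, where the median of all genes was 0.00 and -0.02. These are whole muscles, in which fewer cells of a type and less RNA per cell cannot be told apart.

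**Figure D1:**
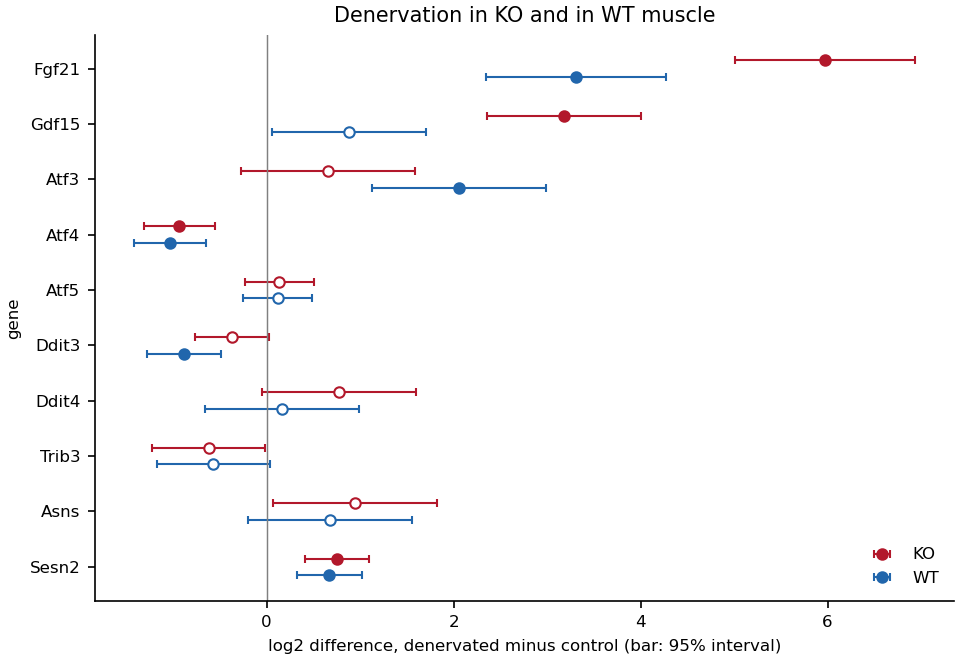
Log2 difference between denervated and control muscle (x axis) of the 10 genes (rows), in KO muscle (red, upper) and WT muscle (blue, lower). Bars are 95% intervals of limma's fit, filled circles are calls at an adjusted p under 0.05 and open circles are not. The points of Fgf21 and of Gdf15 in KO muscle, at 5.97 and 3.18, lie to the right of their WT points, at 3.31 and 0.88, and Atf4 is left of 0 in both genotypes. The control values of Fgf21 were not well above background, so its points are measured differences and not bounds.

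Fgf21, a hormone that signals through Fgf receptors with the co-receptor Klb, was not well above background in control muscle and was so after denervation, at a higher level in KO than in WT muscle. Both of its probes lie on the minus strand in mm8 coordinates, A_52_P235347 at chr7:45481977-45482036, the brighter one that stands for the gene, and A_51_P315925 at chr7:45482352-45482966. On the brighter probe its level was -0.27, 0.68 and -1.55 in KO denervated muscle and -2.93, -3.72 and -3.12 in WT denervated muscle. In control muscle it was -6.52, -6.18 and -6.37 in KO and -6.84, -6.51 and -6.37 in WT. Every denervated array lay above every control array, and every KO denervated array above every WT denervated array. By the mark that the scanner software sets per spot, neither probe was well above background on any of the 6 control arrays, so the control groups give only a limit. On the dimmer probe the second KO control array, at -4.23, lay above the second WT denervated array, at -4.59.

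When the control level was replaced by the dimmest signal still well above background on each array, Fgf21 was at least 12.5-fold higher in KO denervated than in KO control muscle (measured means -0.38 and -6.35). In WT muscle the same replacement gave a bound of at least 1.97-fold (measured means -3.26 and -6.57). These bounds hold for the means of 3 arrays and leave out their spread. The dimmest signal is that of any spot of the array and no detection limit of the Fgf21 probes. The fit on the measured values, without that replacement, called Fgf21 as higher in both genotypes. Its brighter probe passed the filter on dim probes only through the denervated groups, and its control values were not well above background. These calls are therefore no independent test of the rise. The dimmer probe gave bounds of 5.84-fold in KO and 1.10-fold in WT muscle, and there the second WT denervated array was itself not well above background. In WT muscle the call was lost when all values were held at or above that limit (log2 difference 0.98, adjusted p = 0.0897) and with normexp background correction (0.76, adjusted p = 0.268), whereas in KO muscle it was kept under both. With the slide as a block, since the arrays lay on 4 slides, the measured difference was 5.96 in KO and 3.07 in WT muscle. Within slides it was 4.81 and 7.19 in KO muscle on slides 3 and 4, and 3.91 in WT muscle on slide 1.

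The 2 denervated groups were all well above background on the brighter probe, and between them Fgf21 was 7.32-fold higher in KO than in WT muscle. The log2 difference was 2.87 (SE 0.44, 95% interval 1.91 to 3.83, adjusted p = 0.00711). The dimmer probe gave 2.62, but it passed the filter on dim probes only through the KO denervated arrays, where it was high. Its second WT denervated array was not well above background, so this probe is no independent support. Of the 10 genes, 2 were called in this comparison, Fgf21 and Gdf15, both higher in KO muscle, where 2.19% of all genes were called, 0.959% as higher and 1.23% as lower. The same 2 genes were the only ones of the 10 whose denervated groups did not overlap, both above, against 21.7% of all genes, 10.2% above and 11.5% below. Since the 10 genes were chosen with earlier results of these data known, these counts are no independent support. With the slide as a block the Fgf21 difference was 3.07 (adjusted p = 0.0238). Within slide 1 it was 2.65 between 1 KO and 1 WT array, and within slide 4 it was 4.10 between 1 KO and 2 WT arrays. With normexp background correction, which called 25 genes in all in this comparison, the difference was 1.23 and the call was lost (adjusted p = 0.554).

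**Figure D2:**
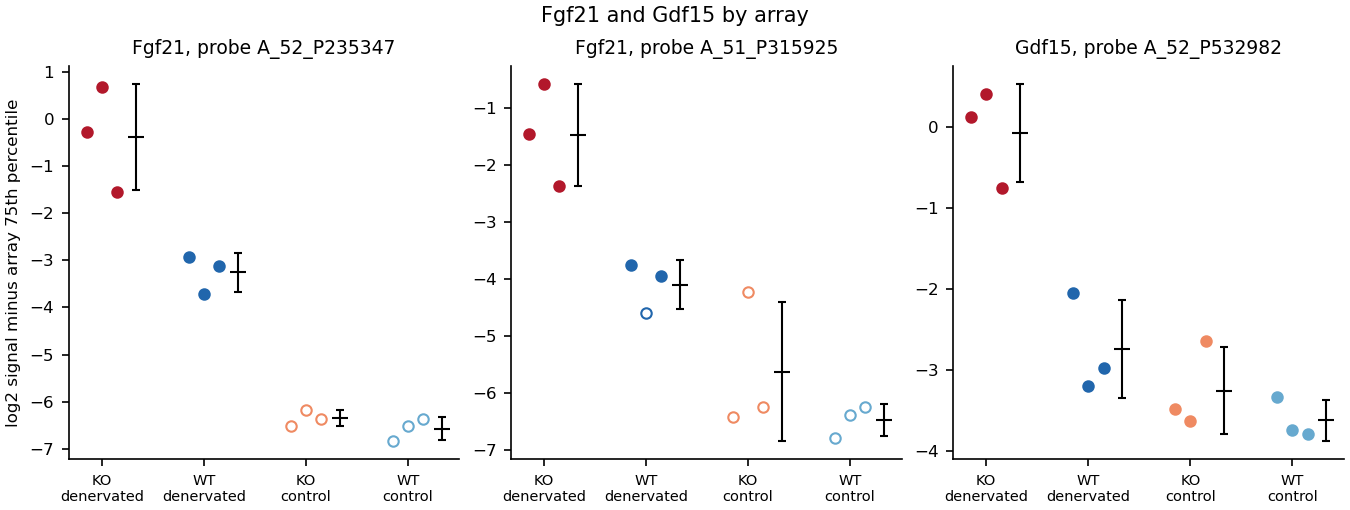
Level on each array (points; y axis, log2 relative to the array's 75th percentile) of both Fgf21 probes and of Gdf15, in KO denervated, WT denervated, KO control and WT control muscle, with replicates 1 to 3 from left to right. Filled points were well above background and open points were not, and the bars beside them show the mean and SD of 3 arrays. The KO denervated arrays are above all others in each panel, and all 6 control arrays of Fgf21 are open.

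Gdf15, a stress hormone of the TGF-beta superfamily that acts on the receptor Gfral in the hindbrain, was well above background on all 12 arrays. Its probe A_52_P532982 lies at chr8:73558561-73558620 on the minus strand (mm8). Its level was 0.13, 0.40 and -0.75 in KO denervated muscle and -2.05, -3.20 and -2.97 in WT denervated muscle. In control muscle it was -3.48, -3.63 and -2.64 in KO and -3.33, -3.74 and -3.79 in WT. The KO denervated arrays stood above all others, the WT denervated arrays lay above the WT control arrays, and the third KO control array lay within the range of the WT denervated ones.

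Gdf15 was 9.04-fold higher in KO denervated than in KO control muscle (log2 difference 3.18, SE 0.37, adjusted p = 5.69e-05). In WT muscle the difference after denervation was 0.88 (95% interval 0.06 to 1.71) and missed the threshold (adjusted p = 0.0836), although the groups did not overlap. Blocking on the slide, the denervation difference was 2.91 in KO (adjusted p = 0.000717) and 0.79 in WT muscle (adjusted p = 0.199), and within slides it was 1.89 and 3.88 in KO muscle on slides 3 and 4 and 1.28 in WT muscle on slide 1. Between the denervated groups Gdf15 was 6.33-fold higher in KO than in WT muscle (log2 difference 2.66, SE 0.37, adjusted p = 0.00437). In a fit with slide as a block, that difference was 2.67 (adjusted p = 0.0161), and it was 2.17 within slide 1 and 3.48 within slide 4. As for Fgf21, the call was lost with normexp background correction (1.16, adjusted p = 0.352). On both hormones the second KO denervated array was the highest of its group and the third the lowest.

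Some markers of the cell types in whole muscle were called between denervated and control muscle. Of all genes tested, 23.2% were called as lower and 23.7% as higher in KO muscle, and 20.6% and 18.7% in WT muscle. Signals were summed over each marker list relative to the array's 75th percentile. Of 8 muscle fibre markers, 6 fell in KO and 1 fell in WT muscle after denervation, with sums of 1351 to 1969 in KO denervated muscle, 1546 to 2481 in WT denervated muscle, 2799 to 3032 in KO control muscle and 1867 to 2594 in WT control muscle. Of 10 macrophage markers, 5 rose in KO and 1, Cd68, rose in WT muscle, with sums of 54.0 to 79.8 in KO denervated muscle, 48.2 to 57.4 in WT denervated muscle, 26.8 to 62.5 in KO control muscle and 32.0 to 48.6 in WT control muscle. Of 8 endothelial markers, 6 fell in KO and 5 in WT muscle, with sums of 16.8 to 20.4 in KO denervated muscle, 12.4 to 20.4 in WT denervated muscle, 31.9 to 32.8 in KO control muscle and 26.7 to 33.6 in WT control muscle. All 8 muscle fibre markers that define the labelled tissue were measured.

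Between the denervated groups, where Fgf21 and Gdf15 differed, no marker of 10 lists was called in limma. Of 61 tested, 12 had an unadjusted p under 0.05, against 2487 of all 15226 genes. All 8 muscle fibre markers were lower in KO than in WT denervated muscle, with a median log2 difference of -0.37. Higher in KO muscle were 9 of 10 macrophage, 6 of 8 endothelial, 6 of 7 fibroblast and 6 of 6 adipocyte markers. The sums did not overlap for Schwann cells (8.65 to 9.76 in KO denervated and 6.08 to 6.95 in WT denervated muscle, 7 of 8 markers tested, Cdh19 at background on all arrays) and for satellite cells (22.3 to 23.9 in KO denervated and 16.2 to 20 in WT denervated muscle, 5 of 6 markers tested). Of all genes tested, 21.7% did not overlap in this comparison either, so sums that lie apart do not by themselves show a difference. Single markers did not all share the direction of the sums. In KO against WT denervated muscle, 6 of 7 Schwann cell markers were higher, but only 3 of 5 satellite cell markers (log2 differences -0.54 to 0.81). The sums did not overlap either for granulocytes (2.99 to 4.77 in KO denervated and 5.16 to 23.5 in WT denervated muscle, 5 of 7 markers tested, Csf3r and Cxcr2 at background on all arrays). All 5 were lower in KO than in WT muscle, also in control muscle, where the sums were 1.04 to 22.2 in KO and 12.1 to 32.4 in WT. For erythrocytes the sums met (5.22 to 12.2 in KO denervated and 11.3 to 24.2 in WT denervated muscle, 3 of 6 markers tested), and all 3 markers tested fell after denervation in both genotypes. All 3 were lower in KO than in WT denervated muscle, with an unadjusted p under 0.05 in limma. They were also lower in KO than in WT control muscle, where the sums were 18.5 to 39.4 and 34.8 to 51.2. The part of these cells in the levels of the 10 genes was not tested.

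Whether denervation acted more strongly in KO than in WT muscle was tested as the difference of the 2 responses. None of the 10 genes was called in that test in limma, where 0.184% of all genes were called, 0.0985% with a higher and 0.0854% with a lower response in KO muscle. Of the 10 genes, 3 had an unadjusted p under 0.05, against 1437 of all 15226 genes. For Fgf21 the responses differed by 2.65 (95% interval 1.29 to 4.02, adjusted p = 0.150), a value that rests on control levels not well above background. It was called without the third KO denervated array (3.24, adjusted p = 0.0377). For Gdf15 the responses differed by 2.29 (95% interval 1.13 to 3.46, adjusted p = 0.149). With the slide as a block these values were 2.89 for Fgf21 (adjusted p = 0.192) and 2.12 for Gdf15 (adjusted p = 0.202). Atf3, the remaining gene with an unadjusted p under 0.05, had a response smaller in KO muscle by 1.41 on the log2 scale (adjusted p = 0.495).

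In control muscle none of the 10 genes was called between KO and WT in limma, where 0.00657% of all genes, Smad4 alone, were called. An unadjusted p under 0.05 was found for 1 of the 10, against 617 of all 15226 genes. The 1 gene was Ddit3, at -0.35, 0.02 and 0.09 in KO control muscle, against 0.61, 0.55 and 0.09 in WT control muscle. Its difference was -0.50 (95% interval -0.89 to -0.10, adjusted p = 1.00). It was the only one of the 10 genes whose control groups did not overlap, with almost equal values of its nearest arrays, and 8.54% of all genes did not overlap, 3.71% above and 4.83% below. Gdf15 differed by 0.37 (95% interval -0.45 to 1.19) and Atf3 by 0.58 (95% interval -0.35 to 1.51). Each interval gives the uncertainty of its control difference and is no range for other comparisons. The Gdf15 difference of 2.66 between the denervated groups was compared with that in control muscle by the difference of the responses, not called in limma (adjusted p = 0.149). Fgf21 was not well above background in either control group, and no fold is given there.

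**Figure D3:**
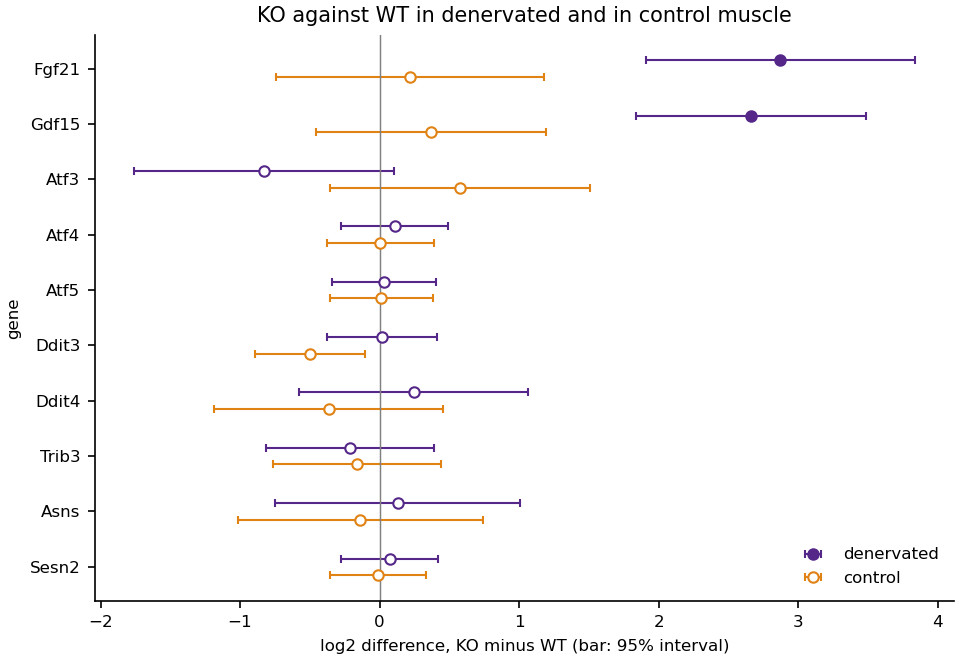
Log2 difference between KO and WT muscle (x axis) of the 10 genes (rows), after denervation (purple, upper) and in control muscle (orange, lower). Bars are 95% intervals of limma's fit, filled circles are calls at an adjusted p under 0.05 and open circles are not. Fgf21 at 2.87 and Gdf15 at 2.66 after denervation are the filled circles, and no control difference is called.

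Atf4, the transcription factor at the centre of the response, had less mRNA after denervation in both genotypes. Its probe A_52_P139727 lies at chr15:80083904-80083963 on the plus strand (mm8). Its level was 2.27, 1.63 and 1.99 in KO denervated muscle and 2.03, 1.67 and 1.87 in WT denervated muscle. In control muscle it was 2.96, 2.94 and 2.78 in KO and 2.85, 2.80 and 3.02 in WT, above every denervated array. Atf4 was 1.91-fold lower in KO denervated than in KO control muscle (log2 difference -0.93, SE 0.17, adjusted p = 0.00128) and 2.05-fold lower in WT denervated than in WT control muscle (-1.03, SE 0.17, adjusted p = 0.000877). The difference between the denervated groups was 0.11 (95% interval -0.28 to 0.49). Blocking on the slide, the denervation difference was -0.99 in KO (adjusted p = 0.00347) and -0.94 in WT muscle (adjusted p = 0.0111), and within slides it was -0.79 and -1.34 in KO and -0.82 in WT muscle. The array measures mRNA, and Atf4 protein was not measured.

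Atf5, a related factor that is also controlled at translation and is known for its part in the mitochondrial stress response, showed no called difference. It averaged 5.13 ± 0.13 in KO denervated muscle, 5.10 ± 0.27 in WT denervated muscle, 4.99 ± 0.13 in KO control muscle and 4.98 ± 0.19 in WT control muscle (SD, n = 3 each). After denervation it differed by 0.14 (95% interval -0.23 to 0.51) in KO and by 0.12 (95% interval -0.25 to 0.49) in WT muscle. Quantile normalization between arrays turned the KO difference into a call, at 0.33 (adjusted p = 0.0317), and so did the authors' deposited series matrix values, at 0.32 (adjusted p = 0.0453).

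Atf3, a factor induced by Atf4 and by many other stress and injury signals, was higher after denervation in WT muscle. Its probe A_52_P452689 lies at chr1:192871283-192871342 on the minus strand (mm8). Its level was 2.54, 0.60 and 1.33 in KO denervated muscle and 2.70, 2.03 and 2.23 in WT denervated muscle. In control muscle it was 1.02, 0.29 and 1.19 in KO and 0.47, -0.10 and 0.40 in WT. The 3 KO denervated arrays were spread over almost 2 log2 units and overlapped both the WT denervated and the KO control arrays, whereas the WT groups were apart. Atf3 was 4.17-fold higher in WT denervated than in WT control muscle (log2 difference 2.06, SE 0.42, adjusted p = 0.00298). In KO muscle the difference was 0.66 (95% interval -0.28 to 1.59, adjusted p = 0.226), and without the second KO denervated array it was 1.10 and called (adjusted p = 0.0448). In a fit with slide as a block, the difference was 0.27 in KO (adjusted p = 0.541) and 2.10 in WT muscle (adjusted p = 0.00431), and within slides it was 0.13 and -0.42 in KO and 2.22 in WT muscle. The array of replicate 2 in KO denervated muscle, the lowest of its group in Atf3, was the highest in Fgf21 and Gdf15.

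Ddit3, the factor also called Chop that Atf4 induces in prolonged stress, was 1.84-fold lower in WT denervated than in WT control muscle (log2 difference -0.88, SE 0.18, adjusted p = 0.00282). Its level was -0.55, -0.45 and -0.35 in KO denervated muscle and -0.27, -0.50 and -0.62 in WT denervated muscle, so the denervated groups overlapped. In KO muscle it differed by -0.37 after denervation (95% interval -0.76 to 0.02, adjusted p = 0.110), with groups that just missed overlapping. With the slide as a block the WT difference was -0.72 (adjusted p = 0.0353), and it was -0.88 within slide 1. The WT call was lost with normexp background correction (-0.51, adjusted p = 0.109).

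Of the 4 target genes outside the hormones and factors, Sesn2 alone was called on the probe that stands for its gene, and its other probe was not called. Sesn2 encodes a sestrin, a leucine-binding inhibitor of mTORC1. On the brighter probe A_52_P154710 (chr4:131764135-131764194, minus strand, mm8), which the array design assigns to a cloned cDNA, its level was 0.68, 0.93 and 0.99 in KO denervated muscle and 0.78, 0.95 and 0.65 in WT denervated muscle. In control muscle it was 0.22, 0.23 and -0.11 in KO and 0.31, 0.06 and -0.00 in WT, below every denervated array. The rise was 1.69-fold in KO (log2 difference 0.75, SE 0.16, adjusted p = 0.00250) and 1.59-fold in WT muscle (0.67, SE 0.16, adjusted p = 0.00631). The other probe, A_51_P161354 (chr4:131765019-131765078, minus strand), which the design assigns to the RefSeq mRNA, was well above background on all 12 arrays and differed by 0.02 in KO (adjusted p = 0.949) and by 0.08 in WT muscle (adjusted p = 0.780). Which transcripts each probe detects was not tested. Blocking on the slide, the difference was 0.76 in KO (adjusted p = 0.0119) and 0.60 in WT muscle, no longer called (adjusted p = 0.0589), and within slides it was 1.10 and 0.71 in KO and 0.47 in WT muscle. The WT call was also lost when the probes were averaged (0.37, adjusted p = 0.0517) and with normexp background correction (0.40, adjusted p = 0.188).

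Asns, which makes asparagine and is a classic Atf4 target, averaged 0.63 ± 0.56 in KO denervated muscle, 0.50 ± 0.71 in WT denervated muscle, -0.32 ± 0.27 in KO control muscle and -0.18 ± 0.59 in WT control muscle (SD, n = 3 each). Its difference after denervation was 0.95 in KO (95% interval 0.07 to 1.82, adjusted p = 0.0714), where the groups did not overlap, and 0.68 in WT muscle (95% interval -0.20 to 1.56, adjusted p = 0.202), where they did. The KO difference was called without the first KO denervated array (1.27, adjusted p = 0.0299) and without the third WT denervated array, which enters only through the shared spread (adjusted p = 0.0452).

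Ddit4, an inhibitor of mTORC1 also induced by glucocorticoids and hypoxia, averaged 2.80 ± 0.26 in KO denervated muscle, 2.56 ± 0.41 in WT denervated muscle, 2.03 ± 0.29 in KO control muscle and 2.40 ± 0.87 in WT control muscle. The WT control arrays of Ddit4, at 1.48, 2.50 and 3.20, reached below and above both denervated groups, while the KO denervated arrays all lay above the KO control arrays. Its difference after denervation was 0.77 in KO (95% interval -0.05 to 1.59, adjusted p = 0.109) and 0.16 in WT muscle (95% interval -0.66 to 0.98, adjusted p = 0.755). The KO difference was called without the first WT control array (adjusted p = 0.0359) and with the slide as a block (1.02, adjusted p = 0.0128).

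Trib3, a pseudokinase that inhibits Atf4 and Akt, averaged -2.05 ± 0.33 in KO denervated muscle, -1.84 ± 0.38 in WT denervated muscle, -1.43 ± 0.42 in KO control muscle and -1.27 ± 0.32 in WT control muscle (SD, n = 3 each). It differed after denervation by -0.62 in KO (95% interval -1.22 to -0.02, adjusted p = 0.0824) and by -0.57 in WT muscle (95% interval -1.17 to 0.03, adjusted p = 0.123). In KO muscle the dimmer probe A_52_P600274 gave -0.95 (adjusted p = 0.0489), with overlapping groups and with 1 KO denervated and 1 KO control array not well above background. Without the first KO control array the brighter probe gave -0.86 (adjusted p = 0.0262). With the replicate number as a block within each genotype, which in WT muscle follows a correlation between same-numbered arrays, Trib3 was called as lower in WT muscle (-0.57, adjusted p = 0.0170).

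**Figure D4:**
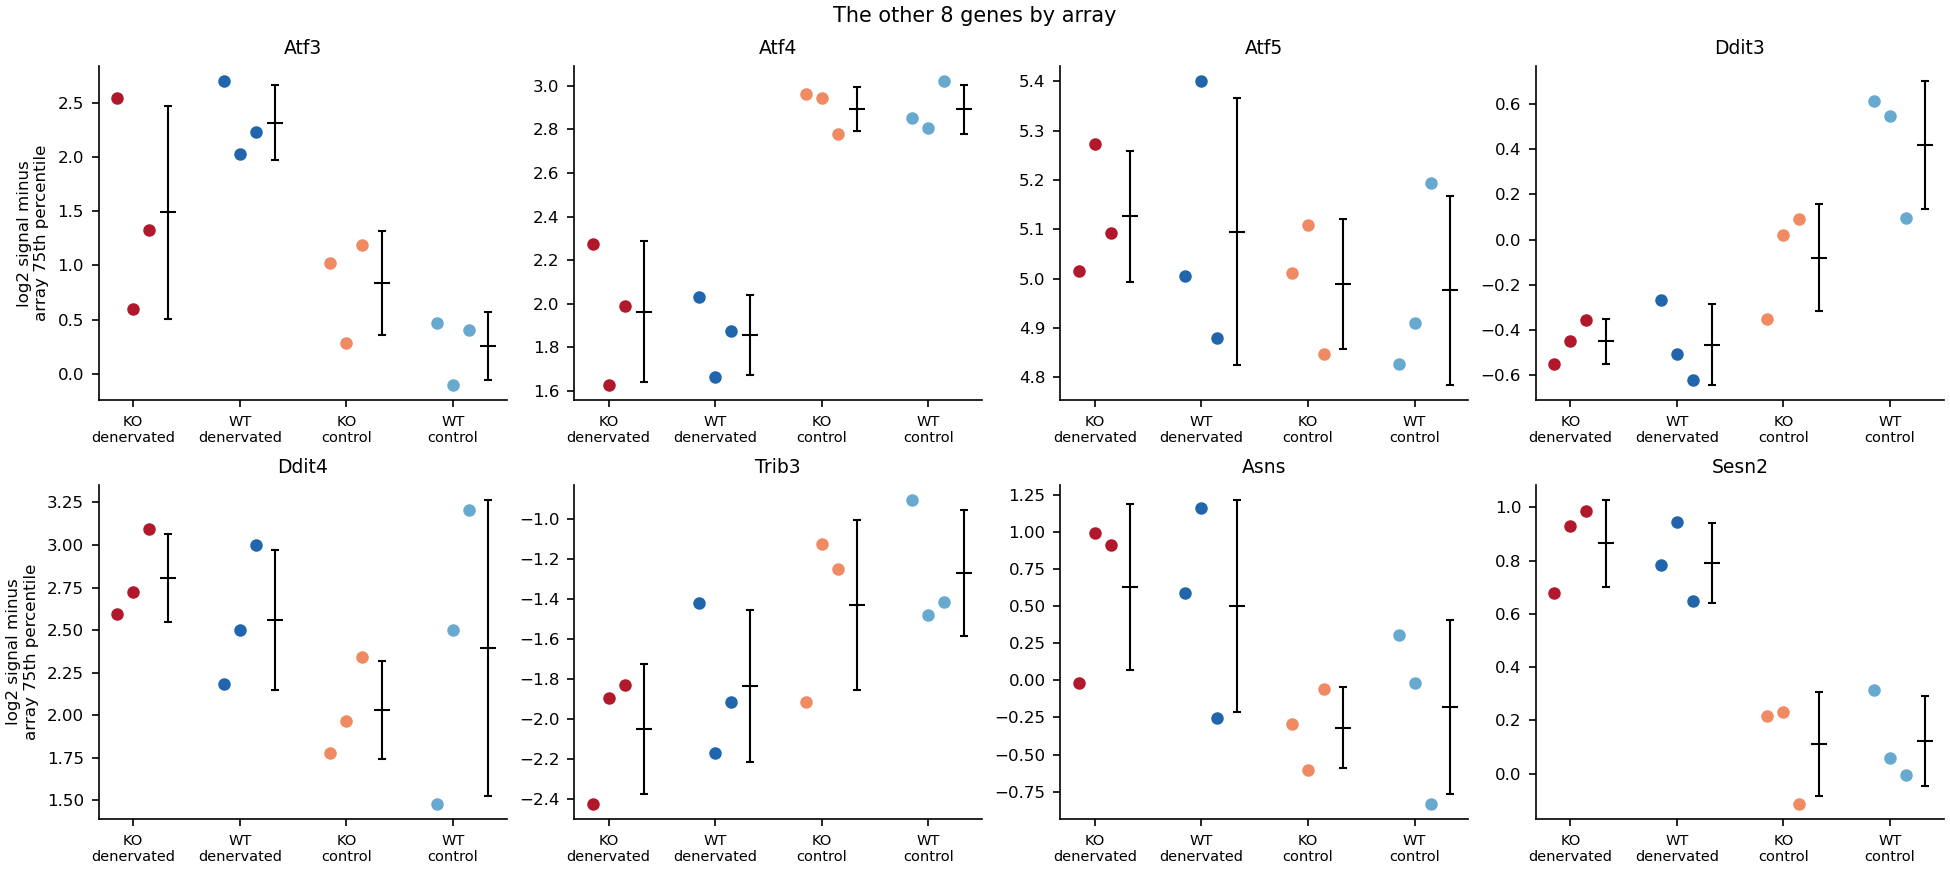
Level on each array (points; y axis, log2 relative to the array's 75th percentile) of the 8 genes other than Fgf21 and Gdf15, in KO denervated, WT denervated, KO control and WT control muscle, with replicates 1 to 3 from left to right and the mean and SD of 3 arrays beside them. Each panel has its own y axis. The denervated arrays lie below the control arrays for Atf4 and above them for Sesn2, and the KO denervated arrays of Atf3 run from 0.60 to 2.54.

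Among 12781 named genes with values on all 12 arrays, the profiles nearest to that of Fgf21 were those of Sox11, Mfsd7a and Agmat. Nearness is the root mean square difference in log2 units after each gene was centred on its own mean, and it was 0.551, 0.697 and 0.709 for these genes. Agmat, which encodes the enzyme agmatinase, averaged 2.87 in KO denervated muscle, 0.83 in WT denervated muscle, -3.19 in KO control muscle and -3.72 in WT control muscle, where 1 of 3 arrays was well above background. Mfsd7a, a member of the major facilitator transporters, averaged 2.24 in KO denervated muscle, 0.49 in WT denervated muscle, -3.30 in KO control muscle and -3.51 in WT control muscle, and Sox11, a transcription factor of the Sox family, was like Fgf21 not well above background on any control array. Since these genes were picked for the pattern of Fgf21 on the same arrays, their levels are a description and were given no test, and the same holds for the genes nearest to Atf3, Ddit4 and Asns.

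Nearest to Atf3 were Plod2, a collagen lysyl hydroxylase, Rnf217, a RING finger protein, and Dlg5, a scaffold protein, at 0.389, 0.443 and 0.443. Plod2 averaged -0.86 in KO denervated muscle, 0.19 in WT denervated muscle, -1.59 in KO control muscle and -1.58 in WT control muscle. Nearest to Ddit4 were Cemip, Sgk1 and Apobec3, at 0.255, 0.278 and 0.283. Sgk1, a kinase induced by glucocorticoids, averaged 5.71 in KO denervated muscle, 5.73 in WT denervated muscle, 5.03 in KO control muscle and 5.36 in WT control muscle. Nearest to Asns were Mthfd1l, Catsper2 and Camkk2, at 0.258, 0.274 and 0.288. Mthfd1l, an enzyme of mitochondrial one-carbon metabolism, averaged -1.82 in KO denervated muscle, -2.03 in WT denervated muscle, -2.81 in KO control muscle and -2.24 in WT control muscle.

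The genes around the 10 were described from 10 lists that held 160 genes, of which 148 were tested. The lists were chosen with earlier results of these data known, so a share above that of all genes is a description and no independent support. Their counts can be read against all genes tested, of which 46.9% were called after denervation in KO muscle, 23.7% as higher and 23.2% as lower, and 39.2% in WT muscle, 18.7% as higher and 20.6% as lower. Upstream, the eIF2 kinases, eIF2B subunits and eIF2 phosphatase subunits mostly did not pass the test. Of 15 tested, 2 were higher after denervation in KO and 2 in WT muscle and none was lower, with medians of 0.19 and 0.12, a smaller share than that of all genes called. Impact, an inhibitor of the amino acid sensing kinase Gcn2, rose in both KO (1.12, adjusted p = 0.000433) and WT muscle (0.91, adjusted p = 0.00226). Eif2ak2, the double-stranded RNA sensor PKR, rose in KO muscle (1.22, adjusted p = 0.0224), and Ppp1r15a, the stress-induced phosphatase subunit Gadd34, in WT muscle (0.75, adjusted p = 0.0330). The call of Eif2ak2 was lost without replicate 2 or 3 of KO denervated or replicate 1 or 2 of KO control muscle (1.07 to 1.21, adjusted p 0.0529 to 0.0766) and with the slide as a block (1.04, adjusted p = 0.0794). That of Ppp1r15a was lost without replicate 3 of WT denervated or any WT control array (0.56 to 0.78, adjusted p 0.0652 to 0.118), without the filter on dim probes (adjusted p = 0.0702) and with slides blocked (0.81, adjusted p = 0.105). All these calls, Impact included, were lost with normexp background correction.

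Genes of amino acid and one-carbon synthesis, the supply side of Atf4's program, had more members called as lower than as higher after denervation. Of 16 tested, 6 were lower and 1 was higher in KO muscle, and 6 were lower and 2 were higher in WT muscle, with medians of -0.31 and -0.07. In either direction 7 of 16 in KO and 8 of 16 in WT muscle were called, against 46.9% and 39.2% of all genes, and 23.2% and 20.6% of all genes were called as lower. The transaminases Gpt2 (-2.04 in KO, -2.33 in WT) and Got1 (-1.87 in KO, -1.27 in WT) and the mitochondrial folate enzyme Aldh1l2 (-1.57 in KO, -2.27 in WT) fell in both genotypes. With normexp background correction Aldh1l2 was at -0.34 in KO (adjusted p = 0.623) and -0.31 in WT muscle (adjusted p = 0.671). Between the denervated groups, 2 of 16 were lower in KO than in WT muscle, where 2.19% of all genes were called, 1.23% as lower. The 2 genes were Cth, which makes cysteine (-1.32, adjusted p = 0.0284), and Glul, which makes glutamine (-0.81, adjusted p = 0.0445). The call of Cth was lost without replicate 1 or 2 of KO denervated or any WT denervated array (-1.43 to -1.21, adjusted p 0.0527 to 0.110), without the filter on dim probes (adjusted p = 0.0703), and with normexp correction (-0.65, adjusted p = 0.998). That of Glul was lost without any of 10 arrays, all but replicate 3 of KO denervated and replicate 1 of WT denervated muscle (-0.81 to -0.67, adjusted p 0.0507 to 0.147). It was also lost with quantile normalization (adjusted p = 0.0853), the series matrix values (0.0883) and normexp correction (0.733). The same held without the filter on dim probes (adjusted p = 0.107) and with the replicate block by number (0.0508).

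Cytosolic aminoacyl-tRNA synthetases, which load tRNAs and include known Atf4 targets, went both ways. Of 20 tested, 3 were higher and 5 lower in KO denervated muscle, and 6 were higher and 4 lower in WT denervated muscle, with medians of -0.17 and 0.05, against 46.9% and 39.2% of all genes called in either direction. Yars fell in KO (-1.16, adjusted p = 0.000525) and WT muscle (-0.81, adjusted p = 0.00592). Dars rose by 0.49 in KO (adjusted p = 0.0362) and by 1.43 in WT muscle (adjusted p = 8.47e-05) and was lower in KO than in WT denervated muscle (-1.04, adjusted p = 0.0107), a call that was lost when its probes were averaged (-0.59, adjusted p = 0.312) and with normexp background correction. The KO call of Dars was lost without replicate 2 or 3 of KO denervated or replicate 1 or 2 of KO control muscle (0.39 to 0.48, adjusted p 0.0813 to 0.127).

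Other targets of Atf4 and Chop were likewise split, with 6 of 18 tested higher and 5 lower in KO denervated muscle, and 7 higher and 5 lower in WT denervated muscle, where 23.7% and 23.2% of all genes in KO and 18.7% and 20.6% in WT muscle were called as higher and lower. Gadd45a, a growth arrest gene, rose 18.4-fold in KO (adjusted p = 2.01e-07) and 15.1-fold in WT muscle (adjusted p = 2.09e-07). Bbc3, the apoptosis gene Puma, rose in both (2.17 in KO, 2.34 in WT), and the amino acid transporter Slc7a5 rose likewise (1.63 in KO, 2.36 in WT). Chac1, which degrades glutathione and is a close reporter of Atf4 activity in cultured cells, fell in both genotypes (-2.43 in KO, -2.55 in WT), as did Vegfa, the endothelial growth factor (-1.79 in KO, -1.61 in WT). None of the 18 was called between the denervated groups in limma, and 5 had an unadjusted p under 0.05, against 2487 of all 15226 genes.

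Chaperones and other genes of the unfolded protein response in the endoplasmic reticulum rose more often than they fell. Of 22 tested, 12 were higher and 2 lower in KO denervated muscle, and 9 were higher and 1 lower in WT denervated muscle, with medians of 0.48 and 0.45, where 23.7% and 18.7% of all genes were called as higher. Canx, a lectin chaperone, rose by 0.76 in KO (adjusted p = 0.00254) and by 0.67 in WT muscle (adjusted p = 0.00650). Pdia6, a disulphide isomerase, rose by 0.82 in KO and by 0.68 in WT muscle, and the stress sensor Atf6 rose by 0.97 in KO and by 1.26 in WT muscle. Dnajb9, a cochaperone of BiP, fell by 0.59 in KO (adjusted p = 0.00492) and by 0.40 in WT muscle (adjusted p = 0.0409), a WT call lost in most alternatives. Normexp background correction ended the calls of Canx, Pdia6 and Dnajb9 in both genotypes and that of Atf6 in KO muscle. Blocking on the slide ended the WT calls of Canx (0.60, adjusted p = 0.0641), Pdia6 (0.39, adjusted p = 0.129) and Dnajb9 (-0.32, adjusted p = 0.131). The WT call of Pdia6 was also lost without replicate 1 or 2 of WT denervated or replicate 2 or 3 of WT control muscle (0.60 to 0.67, adjusted p 0.0510 to 0.0677). That of Dnajb9 was lost without any WT control array, without replicate 2 or 3 of WT denervated, replicate 3 of KO denervated, or replicate 1 or 3 of KO control muscle (-0.44 to -0.32, adjusted p 0.0508 to 0.129).

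Of the genes of mitochondrial stress and proteostasis, those called all fell. Of 15 tested, 12 were lower in KO and 7 in WT denervated muscle and none was higher, with medians of -0.56 and -0.36, where 23.2% and 20.6% of all genes were called as lower. The inner membrane fusion protein Opa1 fell by 0.95 on the log2 scale in KO (adjusted p = 0.000203) and by 0.86 in WT muscle (adjusted p = 0.000531). The protease Oma1, which relays mitochondrial stress to the integrated stress response through Dele1, fell by 0.95 in KO (adjusted p = 0.000399) and by 0.93 in WT muscle (adjusted p = 0.000635). The mitochondrial chaperone Trap1 fell by 1.30 in KO and by 0.76 in WT muscle. Dele1 fell by 0.93 in KO and by 0.72 in WT muscle on its brighter probe, while its other probe went the opposite way and both calls were lost when the probes were averaged. Blocking on the slide ended the WT calls of Trap1 (-0.46, adjusted p = 0.0998) and Dele1 (-0.54, adjusted p = 0.0763). None was called between the denervated groups in limma, and 0 had an unadjusted p under 0.05, against 2487 of all 15226 genes.

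Regulators of mTORC1 related to Sesn2 and Ddit4 went both ways, with 4 of 16 tested higher and 3 lower in KO denervated muscle, and 6 higher and 3 lower in WT denervated muscle, against 46.9% and 39.2% of all genes called in either direction in KO and WT muscle. Sesn1, the sestrin under p53 control, fell by 1.33 in KO (adjusted p = 0.000459) and by 1.09 in WT muscle (adjusted p = 0.00225), in contrast to the brighter probe of Sesn2. Sesn3, a sestrin under FoxO control, rose by 1.39 in KO (adjusted p = 0.000224) and by 0.71 in WT muscle (adjusted p = 0.0152). The WT call of Sesn3 was lost with the slide as a block (0.61, adjusted p = 0.105), with normexp correction and without replicate 1 or 2 of WT denervated or replicate 2 of WT control muscle (0.58 to 0.64, adjusted p 0.0517 to 0.0635). Akt1s1, the mTORC1 inhibitor PRAS40, fell in both (-1.46 in KO, -1.07 in WT).

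Of the receptors through which Fgf21 and Gdf15 act, 3 of 7 could be tested. Klb, Fgfr2 and Ret did not pass the filter on dim probes, and Gfral was not analysed here. Fgfr4 was 2.15-fold higher in KO denervated than in KO control muscle (adjusted p = 0.000284) and 1.88-fold higher in KO than in WT denervated muscle (log2 difference 0.91, adjusted p = 0.0162). Its 2 other probes shared the sign of the genotype difference, but 1 of them turned the sign of the KO denervation difference, and both calls were lost when the probes were averaged. The genotype call was also lost without replicate 3 of KO denervated or replicate 3 of WT denervated muscle (0.83 to 0.89, adjusted p 0.0608 to 0.0628), with the slide as a block (0.87, adjusted p = 0.0517) and with normexp correction (0.47, adjusted p = 0.919). Fgfr3 rose in WT muscle (1.01, adjusted p = 0.000575), and Fgfr1 fell in KO muscle (-0.95, adjusted p = 0.0331), a call lost without replicate 2 of KO denervated or replicate 2 or 3 of KO control muscle (-0.98 to -0.58, adjusted p 0.0668 to 0.126), with the slide as a block (-0.83, adjusted p = 0.0884), with averaged probes and with normexp correction.

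Other factors of the Atf, Jun and C/EBP families that can pair with Atf4 or Atf3 had 3 of 13 higher and 3 lower in each genotype, near the shares of all genes. Jun rose by 1.75 in KO (adjusted p = 0.000108) and by 2.38 in WT muscle (adjusted p = 1.56e-05), and Nfe2l2, the oxidative stress factor Nrf2, rose by 0.84 in KO and by 0.85 in WT muscle, calls lost with normexp correction. Ppara, the factor that drives Fgf21 in fasted liver, fell, and so did some of its targets. Of 10 tested, 5 were lower and none was higher in each genotype, with medians of -0.89 in KO and -0.72 in WT muscle, where 23.2% and 20.6% of all genes were called as lower. Ppara itself fell by 2.74 in KO (adjusted p = 3.75e-06) and by 2.39 in WT muscle (adjusted p = 1.17e-05), and its target Cpt1b, the muscle carnitine palmitoyltransferase, fell by 2.03 in KO and by 1.60 in WT muscle. In the 10 lists none of 148 genes tested was called between KO and WT in control muscle or in the difference of the responses in limma. An unadjusted p under 0.05 was found for 7 and 9 of them, against 617 and 1437 of all 15226 genes.

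**Figure D5:**
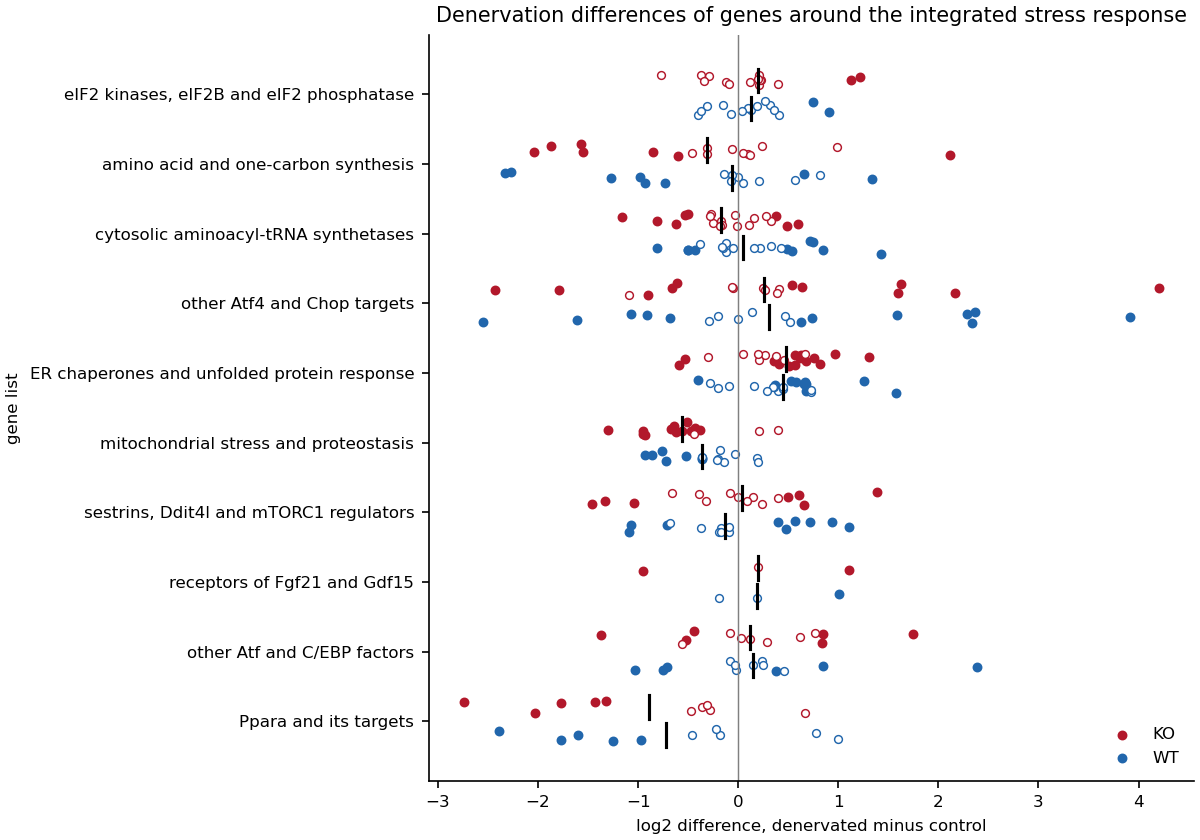
Log2 difference between denervated and control muscle (x axis) of each tested gene of the 10 lists (rows), in KO muscle (red, upper) and WT muscle (blue, lower). Filled circles are calls at an adjusted p under 0.05, open circles are not, and the black bars mark medians. The chaperone medians lie at 0.48 and 0.45, and the mitochondrial medians at -0.56 and -0.36.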

How the data were processed

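Total RNA of whole gastrocnemius was labelled with Cy3 and hybridised to 12 Agilent arrays, per the labels' protocols. The deposited files hold spot intensities that Agilent Feature Extraction (version 10.7.3.1 per the file headers, 10.5.1.1 per the submitters' processing notes) had background-corrected. The 10 genes and all lists were chosen with earlier results of these data known.

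Control spots and outlier spots were left out, spots of a probe were averaged, and log2(gProcessedSignal) minus the 75th percentile of each array was used. Intensities at that percentile ran from 219 to 364 units, and between 50.2% and 56.4% of probes were well above background on an array. The 22525 of 41174 probes that every array of some group marked as well above background were kept, and the brightest probe stood for its gene. Probe positions are those of the array design in mm8. Group means of 15226 genes were fitted on 12 arrays with limma 3.58.1 in R 4.3.3 (lmFit, eBayes, 8 residual and 3.15 prior degrees of freedom), with Benjamini-Hochberg adjustment over all genes in each of 5 comparisons. Of these genes, 234 lacked a value on at least 1 array, and none of the 10 genes did. The number of arrays limits the precision, and with 3 arrays per group the smallest two-sided p of an exact permutation test is 0.1. On simulated data for KO against WT denervated muscle with 15226 genes, 52% of genes shifted by 1 log2 unit were called, 94% of those shifted by 2, and 6 unshifted genes.

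Genes named beyond the 10 are up to 4 of each list with the smallest adjusted p in a comparison, the 3 genes most like Fgf21, Atf3, Ddit4 and Asns, and Smad4. The design text says that the experiments were independent with different animals but not what a replicate number marks. Same-numbered WT denervated and WT control arrays deviated together (correlations 0.108 to 0.303). The correlations were 0.0139 to 0.175 in KO muscle, 0.00583 to 0.298 between the denervated groups and -0.0998 to 0.164 between the control groups. Some same-numbered arrays also shared a slide. The arrays were scanned on 2 days. Replicates 2 and 3 of WT denervated muscle lay on slide 4, scanned on day 2. The WT control arrays lay on slides 1, 2 and 3, scanned on day 1. In WT muscle, denervation therefore cannot be fully told apart from slide and scan day. The main fit paired no arrays, so the results above ignore any pairing. The replicate number entered only in alternatives, as a block over all groups or within each genotype. Alternatives were the normalization, the background correction (normexp with an offset of 50 units), the filter, averaged probes, the deposited series matrix values (log2, unit inferred from their match to the scanner values), the slide and the replicate number as blocks, and each array left out in turn. The floor for dim values and the dimmer probe were added after the data were seen.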

Additional observations from a re-analysis of the deposited data

How the results depend on the processing

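Of 1095 values of the 10 genes under alternatives, 1010 kept direction and call, 15 gained and 10 lost a call, and 60 turned in sign. All 60 were differences that were not called. With the replicate block by number the calls of the 10 genes were those given above, except Ddit4 in KO muscle (0.77, adjusted p = 0.0190), and with the replicate block within genotype 7 of the 10 genes were called in KO muscle after denervation, Ddit4, Trib3 and Asns in addition. The block within genotype called 6 of the 10 genes in WT muscle, Trib3 in addition.

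The counts of genes called depended on the background correction, which for normexp included the offset of 50 units. Normexp correction called 1927 genes in WT and 2746 in KO muscle after denervation, 25 between the denervated groups and 0 in the control groups and in the difference of the responses, where the processed signals called 5976, 7142, 333, 1 and 28. Of the 10 genes it called 2 after denervation in WT muscle and 0 between the denervated groups. Without the filter on dim probes, 203 genes were called between the denervated groups, 0 between the control groups and 5 in the difference of the responses. Between the control groups, 5 genes were called with quantile normalization and with the array median, 4 with averaged probes and with the series matrix values, 2 with dim values at the floor, and 0 with the slide or the replicate number as a block. In the difference of the responses, 4 were called with the slide block, 9 with the replicate block within genotype and 45 with dim values at the floor. Of the genes called between the denervated groups, 43.8% were higher in KO muscle, against 32.2% with the array median and 68% with normexp correction. In the difference of the responses, 53.6% were higher, against 41.7% with the array median. The cause of these shifts was not tested.

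With single arrays left out, 4811 to 6120 genes were called in WT and 6098 to 7218 in KO muscle after denervation, 151 to 324 between the denervated groups, 0 to 2 between the control groups and 5 to 51 in the difference of the responses. Of the 10 genes, 5, 4 to 5, 2, 0 and 0 to 1 were called in the same comparisons.

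The turned signs without a left-out array were these. After denervation in WT muscle Atf5 was -0.14 with normexp. Between the denervated groups Ddit3 was -0.0017 with quantile normalization, -0.038 with the array median, -0.099 with normexp, -0.024 with the series matrix values and -0.039 with the slide block, Atf5 was -0.020 with the array median and Asns -0.096 with normexp. Between the control groups Sesn2 was 0.0019 with the array median, 0.057 with averaged probes and 0.13 on its dimmer probe, Fgf21 was -0.13 with normexp, Atf4 -0.0012 with the series matrix values and Atf5 -0.055 with the slide block. In the difference of the responses Atf5 was -0.046 with the array median, Asns -0.035 with normexp, Atf4 -0.048 with the slide block and Sesn2 -0.059 on its dimmer probe.

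With single arrays left out, signs turned within these ranges. After denervation in WT muscle Atf5 ran from -0.033 to 0.23 and Ddit4 from -0.29 to 0.57. Between the denervated groups Atf4 ran from -0.048 to 0.28, Atf5 from -0.076 to 0.18, Ddit3 from -0.063 to 0.11 and Asns from -0.25 to 0.46. Between the control groups Atf4 ran from -0.040 to 0.067, Atf5 from -0.062 to 0.12, Trib3 from -0.31 to 0.082, Asns from -0.46 to 0.10, Sesn2 from -0.074 to 0.10 and Ddit4 from -0.82 to 0.039. In the difference of the responses Atf4 ran from -0.051 to 0.27, Atf5 from -0.090 to 0.17, Trib3 from -0.30 to 0.15, Asns from -0.11 to 0.60 and Sesn2 from -0.029 to 0.18. Signal over background limited the control levels of both Fgf21 probes and, on 1 KO control array, of the dimmer Trib3 probe.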
